A study of Mus musculus with 4 samples.

Results

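The integrated stress response and the unfolded protein response were followed through 31 genes in single mouse embryos with and without Mettl14. The genes were the listed members of the ATF4 pathway, of amino acid supply and of the chaperone set of the endoplasmic reticulum, and all 31 were found among the 47885 rows of the count table. Gene expression was measured in 4 whole C57BL/6 embryos at embryonic day 5.5, each an egg cylinder that holds visceral endoderm around epiblast and extraembryonic ectoderm. The 2 embryos called WT are labelled Mettl14+/+ and the 2 called KO are labelled Mettl14-/-. The genotype was called from Mettl14 qPCR on the amplified cDNA of the same embryos, so a heterozygous embryo that expressed Mettl14 would have been placed with WT. Which part of the gene was deleted is not stated in the labels. The study asked what loss of Mettl14, a subunit of the enzyme that places N6-methyladenosine (m6A) on RNA, does to the transcriptome before mutants differ in shape.

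Cells answer a shortage of amino acids or misfolded protein in the endoplasmic reticulum (ER) by related routes. In the integrated stress response, kinases such as PERK phosphorylate the translation factor eIF2, which lowers general translation while the mRNA of ATF4 is translated better. ATF4 then turns on genes for amino acid synthesis and uptake and, under longer stress, CHOP and its targets. In the unfolded protein response, PERK, IRE1 and ATF6 sense the ER lumen. IRE1 splices the Xbp1 mRNA, and XBP1 and ATF6 turn on ER chaperones. The visceral endoderm of the egg cylinder is a secretory epithelium with a large ER. Counts per gene show the abundance of these mRNAs. They do not show phosphorylation of eIF2, translation of Atf4 or splicing of Xbp1.

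None of the 31 genes differed between KO and WT at an edgeR adjusted p under 0.05, where 0% of the 15563 genes tested did. DESeq2 called none of the 31 either, where it called 1.54% of all genes. The median log2 fold change (KO over WT) was -0.13 for the 31 genes and -0.03 for all genes tested, with 12 members above 0 and 19 below. The KO embryos were both above or both below the WT embryos for 11 members, which is 35.5% of them and near the 38.2% of all genes tested that did so. Of these 11 members, 4 were higher in KO and 7 lower, where 19.4% and 18.8% of all genes were. An unadjusted p under 0.05 was reached by 2 members, Cth and Hsp90b1, where 7.82% of all genes reached it. For 7 members the 95% interval of the difference lay inside a 2-fold change in either direction, and for the other 24 it did not. These intervals come from the edgeR fit with 2 embryos per group and are not adjusted for the number of genes.

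DNA elements that bind the factors of these pathways were searched in the promoters, each as a fixed pattern. The matches shown here tell which members carry that pattern, and a member without a match may hold another form of the element. A promoter window from 250 bases before to 50 bases after an annotated start was found for 27 of the 31 genes (RefSeq sequences, GRCm38.p6, the same build as mm10); Atf6, Cth, Hyou1 and Slc7a5 had none. The ER stress element, bound by ATF6 with NF-Y, was searched as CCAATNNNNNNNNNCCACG on both strands. It was found in 6 members, all of them ER chaperones, which is 22.2% of members with a window and compares with 0.137% of all genes with one. The members were listed as genes of these pathways, so a share above that of all genes describes the list and was not tested. In the lines that follow the capitals mark the fixed letters of the element, each line reads 5′ to 3′ on the strand of the gene, and coordinates cover the printed bases.
Calr (chr8:84847067-84847101, minus strand): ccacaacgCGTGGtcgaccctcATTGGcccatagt
Canx (chr11:50325792-50325826, minus strand): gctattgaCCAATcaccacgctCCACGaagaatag
Dnajc3 (chr14:118937819-118937853, plus strand): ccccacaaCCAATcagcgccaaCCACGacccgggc
Hsp90b1 (chr10:86705630-86705664, minus strand): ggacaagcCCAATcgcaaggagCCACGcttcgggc
Hsp90b1 (chr10:86705525-86705559, minus strand): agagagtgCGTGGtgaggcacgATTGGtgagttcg
Hspa5 (chr2:34772017-34772051, plus strand): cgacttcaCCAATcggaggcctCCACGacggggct
Pdia6 (chr12:17266483-17266517, plus strand): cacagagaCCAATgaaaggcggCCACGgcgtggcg

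Hsp90b1 holds the element at 2 places, on opposite strands. The C/EBP-ATF response element, bound by ATF4 with a C/EBP partner, was searched as TGATGNAA on both strands and was found in 6 members, again 22.2%, against 4.51% of all genes. These 6 were Asns, Chac1, Herpud1, Slc7a11, Trib3 and Vldlr, and no member held both searched patterns in its window. Other forms of the elements, such as a different spacing of the letters, were not searched, for Herpud1 or any other member.
Asns (chr6:7693217-7693240, minus strand): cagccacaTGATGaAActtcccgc
Chac1 (chr2:119351041-119351064, plus strand): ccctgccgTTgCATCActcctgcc
Herpud1 (chr8:94386309-94386332, plus strand): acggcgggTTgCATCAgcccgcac
Slc7a11 (chr3:50443664-50443687, minus strand): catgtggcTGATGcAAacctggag
Slc7a11 (chr3:50443645-50443668, minus strand): tggagaatTTgCATCAtcatgcag
Trib3 (chr2:152344031-152344054, minus strand): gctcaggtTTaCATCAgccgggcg
Vldlr (chr19:27216812-27216835, plus strand): agcaatagTTgCATCAgcgctcct

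The unfolded protein response element, searched as TGACGTGG on both strands, was in none of the members' windows and in 0.714% of all genes. In each case a match describes letters in this window and not binding. The choice of the list bears on the C/EBP-ATF share in the same way as on that of the ER stress element. The 6 members with a match to the ER stress pattern had log2 fold changes from -0.73 (Hsp90b1) to 0.10 (Calr). The 6 with a match to the C/EBP-ATF pattern had values from -2.08 (Slc7a11) to 1.04 (Chac1).

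The targeted gene, Mettl14, was at 34.0 and 31.6 CPM (read counts scaled to the library size after TMM) in WT against 4.63 and 8.04 CPM in KO. Its log2 fold change of -2.37 (SE 0.45) had an adjusted p of 0.274 by edgeR and 4.18e-04 by DESeq2, so edgeR did not call this gene either. Mettl14 was the gene by which the embryos were classed, so these values are no independent test. Total counts ran from 16108062 to 28698541 per embryo, and 1 count equalled 0.0359 to 0.059 CPM. Markers of the 3 tissues of the egg cylinder were present in each embryo. Visceral endoderm markers were lower in KO in 18 of 19 tested genes of a list of 20, with a summed level of 1082 and 2876 CPM in WT and 457 and 567 CPM in KO. The exception was Sox17 (log2 fold change 0.08). Both KO embryos were below both WT embryos in 16 of the 19, where 18.8% of all genes tested were. DESeq2 called 10 of the 19 and edgeR 0, where they called 1.54% and 0% of all genes. Trf, of the same list, was near the floor in every embryo and was not tested, with 7 and 9 counts in WT against 3 and 0 in KO. Markers of the ectoplacental cone and giant cells were higher in all 7 tested genes of 10 (377 and 578 CPM summed in WT, 1864 and 1055 in KO), and Prl2c2 and Tpbpa were at 0 in every embryo. Gcm1, of the same list and also not tested, had 0 and 6 counts in WT against 0 and 0 in KO. Epiblast markers summed to 3221 and 3445 CPM in WT and to 2320 and 4438 in KO. Extraembryonic ectoderm markers summed to 712 and 828 CPM in WT and to 1137 and 717 in KO. Of 8 maternal decidua markers 4 were tested, and in 3 of them both KO embryos were below both WT embryos, where 18.8% of all genes tested were. Hoxa10 had 15 and 93 counts in WT against 0 and 0 in KO, Col1a2 had 37 and 32 counts against 0 and 1, and Pgr had 61 and 28 against 18 and 12. Among those not tested, Esr1 went the other way, with 0 and 0 counts in WT against 5 and 35 in KO. Prl8a2 had 8 counts in KO replicate 1 and 0 in the rest, and Col3a1 had 8 and 2 counts in WT against 0 and 0 in KO. The sum of this list, 9.08 and 16.5 CPM in WT against 7.88 and 17.6 in KO, was carried in KO by Cryab, at 6.42 and 15.9 CPM, and Hoxa11 was at 0 in every embryo. The 8 blood and immune markers summed to between 2.89 and 4.92 CPM in an embryo, with Hbb-bs, Hbb-bt and Lyz2 at 0 in every one. In whole embryos, fewer cells of a type and less RNA per cell cannot be told apart, and the part of these tissue differences in the values below was not tested.

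Compared per length of exon, the 5 most abundant members were 3 ER chaperones and 2 genes of amino acid supply. Averaged over the 4 embryos and divided by exon length, Hspa5 had 208 CPM per kb, Calr 193, Slc3a2 149, Hsp90b1 145 and Phgdh 141. Atf4, at 130 CPM per kb, was the sixth in this order and close to Pdia6 at 128. The other transcription factors were far lower on the same scale, with Xbp1 at 34.4, Ddit3 at 1.89 and Atf5 at 0.531 CPM per kb. The 3 sensors were between 0.344 (Ern1) and 1.49 (Eif2ak3) CPM per kb, and Slc7a11, at 0.052, was the least abundant member. The median absolute log2 difference between the WT embryos was 0.42 for members and 0.52 for all genes tested, and between the KO embryos it was 0.37 and 0.58. These are descriptions with no test.

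**Figure D1:**
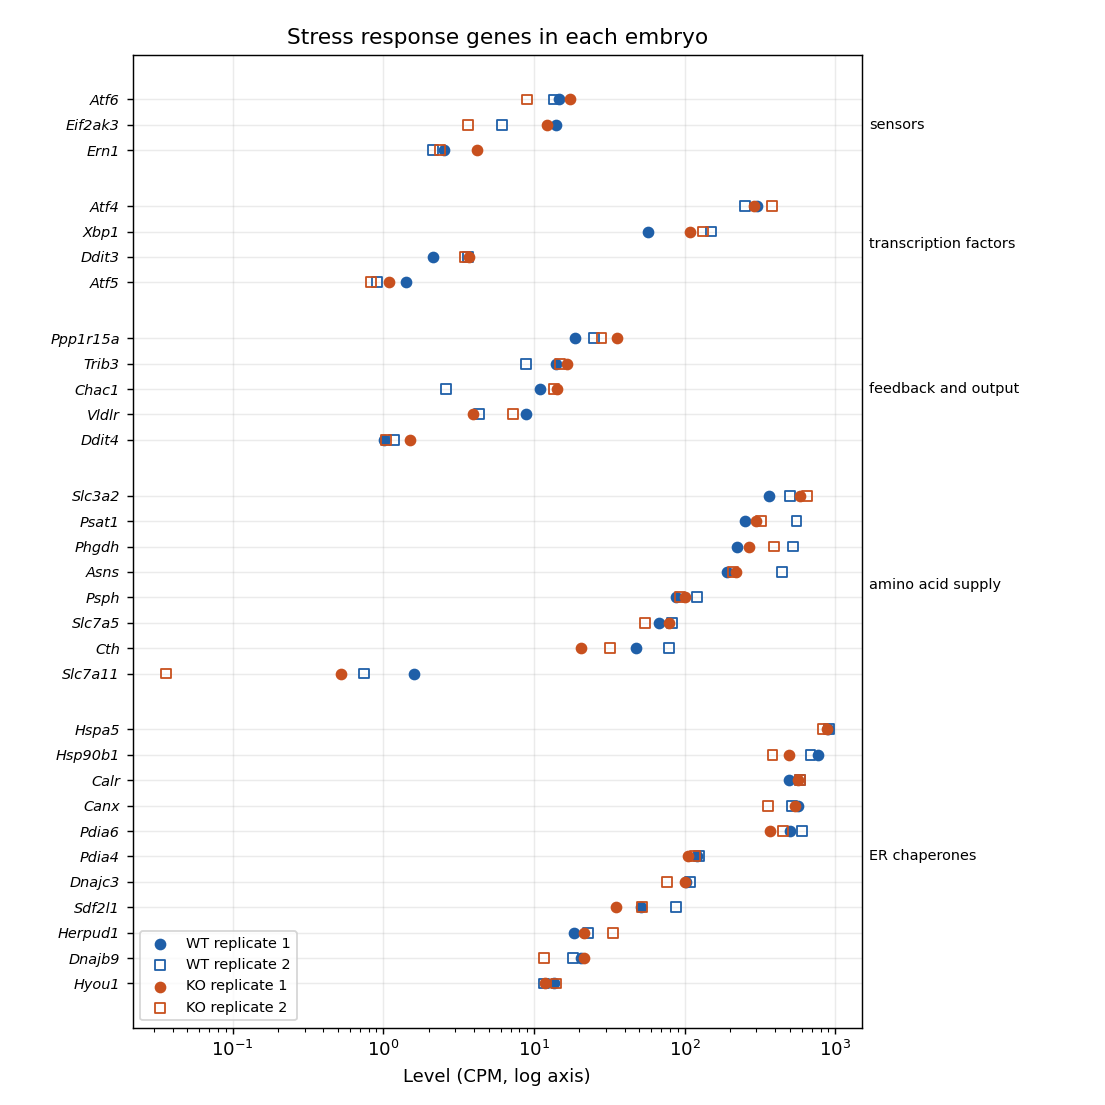
Level of each of the 31 genes in each embryo, in CPM on a log axis, grouped by role, with blue symbols for the 2 WT embryos, orange for the 2 KO embryos, filled circles for replicate 1 and open squares for replicate 2. Hspa5 lies between 826 and 907 CPM in all 4 embryos, while WT replicate 2 stands apart in Asns and Psat1.

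The sensors gave no separation of the groups. Eif2ak3, which encodes PERK, had 13.9 and 6.15 CPM in WT against 12.2 and 3.66 in KO. Here replicate 1 was the higher embryo in both groups, and the difference between embryos of a group was larger than that between groups (log2 fold change -0.34, standard error (SE) 0.68, n = 2 per group). Without KO replicate 1 the log2 fold change was -1.37, and without WT replicate 1 it was 0.35. Atf6, which encodes the ER-anchored factor released by cleavage, had 14.6 and 13.7 CPM in WT against 17.3 and 9.01 in KO, so that the KO embryos lay on either side of WT. Ern1, which encodes IRE1, had 2.53 and 2.14 CPM in WT against 4.20 and 2.37 in KO, or 40 to 89 counts in an embryo.

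Among the transcription factors, Atf4 had 303 and 252 CPM in WT against 288 and 381 in KO. The embryos of the 2 groups overlapped, and the log2 fold change was 0.27 (SE 0.30, 95% interval -0.41 to 0.95, edgeR adjusted p = 0.907). Without KO replicate 1 it was 0.54, and without KO replicate 2 it was 0.06. Xbp1 had 56.8 and 150.1 CPM in WT against 108 and 133 in KO, with both KO embryos between the WT embryos (log2 fold change 0.22, SE 0.46, edgeR adjusted p = 0.967). Its direction was set by the choice of WT embryo, at 1.09 without WT replicate 2 and -0.30 without WT replicate 1.

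Ddit3 encodes CHOP, the factor linked to death under lasting ER stress. It stood at 2.12 and 3.63 CPM in WT and at 3.73 and 3.48 in KO, or 36 to 97 counts in an embryo. The groups overlapped (log2 fold change 0.32, SE 0.66, edgeR adjusted p = 0.965), and the 95% interval from -1.20 to 1.85 leaves room for changes of over 2-fold in either direction. Atf5, a relative of Atf4 that is translated by a similar mechanism, had only 17 to 24 counts in an embryo (1.41 and 0.908 CPM in WT, 1.09 and 0.825 in KO). Atf5 and Ddit3 share 82 and 68 exon bases with Il4i1 and Mars on the opposite strand, which stood at 67.6 to 148 and 75.0 to 117 CPM. The strand setting of the counting is not known, so the low levels of Atf5 and Ddit3 may include reads of those genes, which was not tested. Atf5 also shares 82 exon bases with Nup62 on the opposite strand. Ddit3 shares 105 exon bases on its own strand with a second annotated gene of the same name.

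Of the 5 genes of feedback and output, 3 had both KO embryos above both WT embryos, where 19.4% of all genes tested did, and the list was not tested against the others. Ppp1r15a, which encodes GADD34, the phosphatase subunit that restores eIF2, had 18.9 and 25.2 CPM in WT against 35.8 and 28.1 in KO (log2 fold change 0.54, SE 0.39, edgeR adjusted p = 0.832). Trib3, a pseudokinase gene induced by ATF4 and CHOP, had 13.9 and 8.82 CPM in WT against 16.5 and 14.9 in KO (0.46, SE 0.45, edgeR adjusted p = 0.893). In both genes the gap between the nearest embryos of the 2 groups was smaller than the gap between the WT embryos.

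Chac1, which encodes a glutathione-degrading enzyme induced by ATF4, had 11.0 and 2.62 CPM in WT against 14.3 and 13.6 in KO. The KO embryos agreed closely while WT replicate 2 was the low embryo. The log2 fold change of 1.04 (SE 0.66, edgeR adjusted p = 0.790) was the highest of the 31, and it was 2.43 without WT replicate 1 and 0.36 without WT replicate 2. Ddit4, an inhibitor of mTORC1, had 17 to 32 counts in an embryo (log2 fold change 0.22, SE 0.98). Vldlr, a lipoprotein receptor gene induced through PERK and ATF4, had 8.90 and 4.33 CPM in WT against 3.92 and 7.25 in KO, with the groups interleaved.

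**Figure D2:**
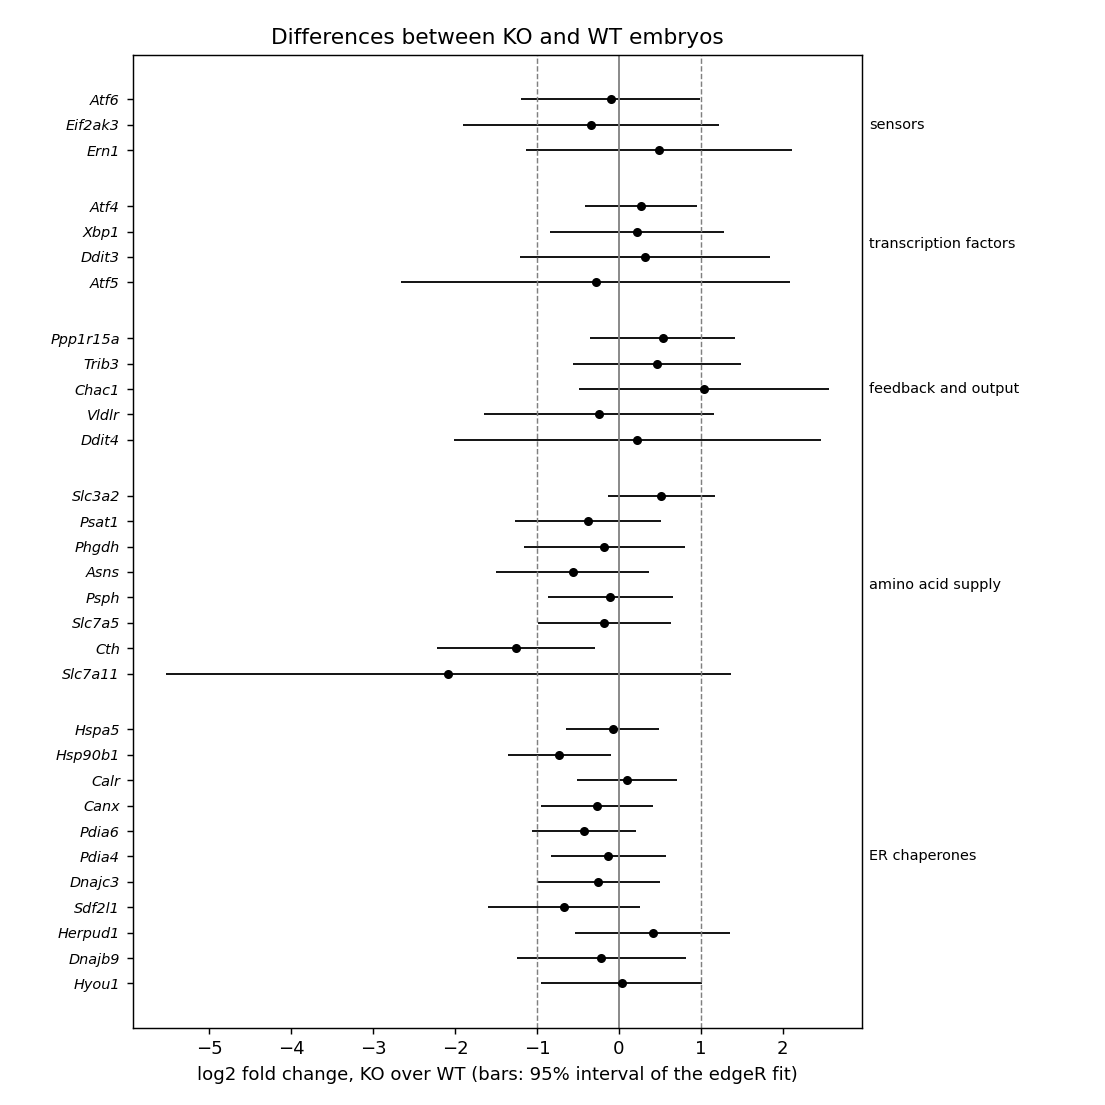
Log2 fold change of KO over WT for each of the 31 genes (points) with its 95% interval from the edgeR fit (bars), with solid and dashed lines at no change and at a 2-fold change. The intervals of Cth and Hsp90b1 lie below 0, neither gene passes the adjusted threshold, and 7 intervals lie within the dashed lines.

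In amino acid supply, 7 of 8 genes had values below 0 (median -0.28). The median turned to 0.17 without WT replicate 2 and was -0.73 without WT replicate 1. The smallest p of all members was that of Cth. Cth encodes cystathionine gamma-lyase, which makes cysteine in the transsulfuration pathway (chromosome 3, 157894248 to 157925077 on mm10). It had 47.5 and 78.7 CPM in WT against 20.6 and 32.1 in KO, so that both KO embryos lay below both WT embryos. The log2 fold change was -1.26 (SE 0.42, 95% interval -2.22 to -0.30), with an adjusted p of 0.518 by edgeR and 0.161 by DESeq2. Leaving out 1 embryo moved it between -1.61 and -0.84. Cbs, the enzyme one step before Cth in that pathway, had 25.3 and 32.7 CPM in WT against 11.9 and 19.2 in KO (log2 fold change -0.90, SE 0.43, edgeR adjusted p = 0.683).

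Asns, Psat1 and Phgdh were highest in WT replicate 2, and their groups overlapped. Asns, the synthetase of asparagine, had 191 and 444 CPM in WT against 220 and 211 in KO (log2 fold change -0.56, SE 0.41, edgeR adjusted p = 0.835). Psat1, the aminotransferase of serine synthesis, had 251 and 554 CPM in WT against 300.2 and 321 in KO (-0.37, SE 0.39, edgeR adjusted p = 0.900). Phgdh, which opens serine synthesis, had 222 and 524 CPM in WT against 267 and 393 in KO, spread over the embryos with no single one apart. WT replicate 2 was at 2.14, 1.91 and 1.78 times the mean of the other 3 embryos. WT replicate 2 was also the highest embryo in 6 of the 8 amino acid genes and the embryo with the highest summed visceral endoderm level (2876 CPM), while its Atf4 level, 252 CPM, was the lowest. Its high rank was not particular to amino acid supply. WT replicate 2 was the highest embryo in 6 of 11 ER chaperones and 13 of the 31 members, and in 0 of 5 genes of feedback and output. The part of the visceral endoderm level in these values was not tested. Without WT replicate 2 the log2 fold changes of Asns, Psat1 and Phgdh were 0.18, 0.32 and 0.58, and without WT replicate 1 they were -1.03, -0.82 and -0.64.

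Phgdh has 19 annotated copies of 90.4% to 98.7% identity, so its counts are uncertain. Of these, 8 are in the table, with at most 13 counts in all in an embryo. Psph, which completes serine synthesis, had 87.3 and 122 CPM in WT against 101 and 93.1 in KO. Its exons share 452 bases with Cct6a on the opposite strand, a gene at 1014 to 1655 CPM, so its level is uncertain too.

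**Figure D3:**
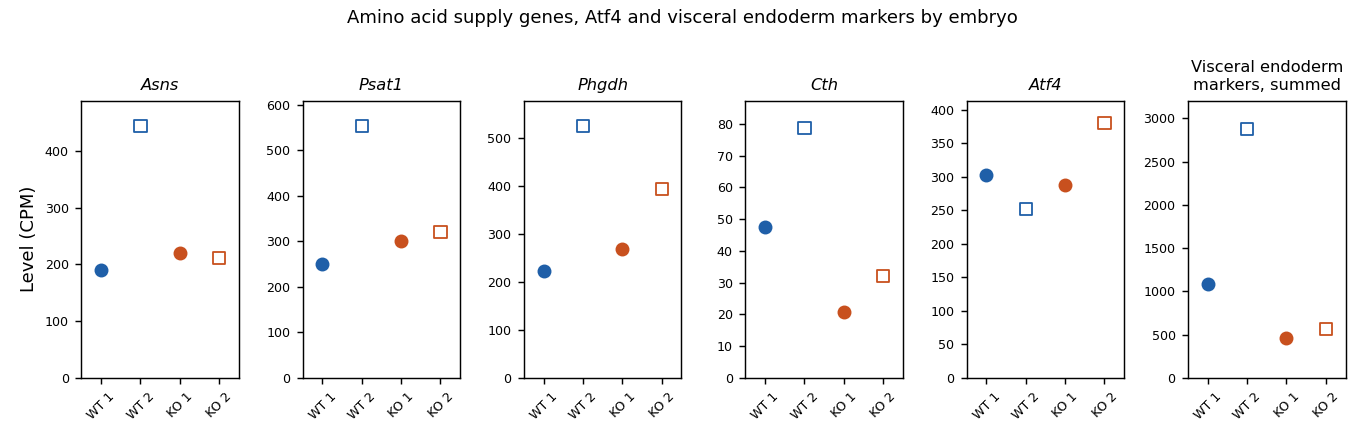
Level in each embryo (CPM, linear axes from 0) of Asns, Psat1, Phgdh, Cth and Atf4, and the summed level of 20 visceral endoderm markers. WT replicate 2 is the highest embryo for Asns, Psat1, Phgdh, Cth and the marker sum and the lowest for Atf4, and both KO embryos are below both WT embryos for Cth and for the marker sum.

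The amino acid transporters did not move together. Slc3a2, the heavy chain that carries several light chains to the membrane, had 363 and 499.5 CPM in WT against 583 and 652 in KO. Both KO embryos were above both WT embryos (log2 fold change 0.52, SE 0.29, edgeR adjusted p = 0.755). Slc7a5, the light chain LAT1 for large neutral amino acids, had 67.2 and 83.0 CPM in WT against 78.5 and 54.5 in KO, and its groups overlapped. Slc7a11, the light chain xCT that imports cystine, was near the limit of detection, with 27 and 14 counts in WT against 11 and 1 in KO. Its log2 fold change of -2.08 (SE 1.50, edgeR adjusted p = 0.833) has a 95% interval from -5.53 to 1.37. Its longest coding transcript also aligned with the abundant tubulin gene Tuba1b at 92.5% identity over 585 bases, so part of so few counts may be misassigned.

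The ER chaperones had a median log2 fold change of -0.22, with 8 of 11 genes below 0, and 5 of the 11 had both KO embryos below both WT embryos, where 18.8% of all genes tested did. Hspa5, which encodes BiP, the most abundant Hsp70 chaperone of the ER and the standard marker of the unfolded protein response, had 896 and 907 CPM in WT against 883 and 826 in KO. The log2 fold change was -0.08 (SE 0.25, edgeR adjusted p = 0.977). Its 95% interval ran from -0.65 to 0.49, that is from 0.638 to 1.41 times the WT level, and it was the gene with the smallest SE of the 31. Leaving out 1 embryo moved the value between -0.07 and -0.02. The 6 other members with intervals inside a 2-fold change were Calr, Canx, Pdia4, Atf4, Psph and Slc7a5.

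Hsp90b1 encodes GRP94, the ER member of the HSP90 family (chromosome 10, 86690209 to 86705509 on mm10). It had 771 and 686 CPM in WT against 497 and 384 in KO. Both KO embryos lay below both WT embryos by more than the difference within either group. The log2 fold change was -0.73 (SE 0.28, 95% interval -1.36 to -0.09), with an adjusted p of 0.568 by edgeR and 0.448 by DESeq2. Leaving out 1 embryo moved it between -0.84 and -0.54. Its exons share 415 bases with the pseudogene 1810014B01Rik on the opposite strand, which stood at 4.63 to 5.81 CPM.

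Sdf2l1, a partner of ER DnaJ chaperones, had 51.5 and 87.6 CPM in WT against 35.2 and 52.1 in KO (log2 fold change -0.67, SE 0.40, edgeR adjusted p = 0.771), with the groups just overlapping. Pdia6, a protein disulfide isomerase, had 500.0 and 600.3 CPM in WT against 371 and 449 in KO (-0.42, SE 0.28, edgeR adjusted p = 0.799), and these groups did not overlap. Herpud1, a membrane protein of ER-associated degradation, had 18.5 and 22.9 CPM in WT against 21.4 and 33.7 in KO (0.41, SE 0.41, edgeR adjusted p = 0.893).

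The lectin chaperones Calr and Canx differed by 0.10 (95% interval -0.50 to 0.70) and -0.27 (-0.95 to 0.42) on the log2 scale. The disulfide isomerase Pdia4 differed by -0.13. The DnaJ co-chaperones Dnajc3 and Dnajb9 differed by -0.25 and -0.22, and Hyou1, the large Hsp70 relative that recharges BiP, by 0.03. The edgeR adjusted p of these 6 genes ran from 0.908 to 0.994.

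Ratios within an embryo do not depend on how libraries are scaled, and the pairs given here were chosen after the values were seen. Hsp90b1 had 0.860 and 0.756 reads per read of Hspa5 in WT and 0.563 and 0.465 in KO. Pdia6 had 0.558 and 0.662 reads per read of Hspa5 in WT and 0.421 and 0.543 in KO, where the nearest embryos almost met. For Calr the ratio to Hspa5 was 0.549 and 0.641 in WT and 0.644 and 0.703 in KO. Of these 3 ratios, that of Hsp90b1 had the widest gap between the groups.

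Slc3a2 had 5.40 and 6.02 reads per read of Slc7a5 in WT and 7.42 and 11.97 in KO, with KO replicate 2 far above the rest. Cth had 0.189 and 0.142 reads per read of Psat1 in WT and 0.0687 and 0.0999 in KO. Asns had 0.629 and 1.76 reads per read of Atf4 in WT and 0.762 and 0.554 in KO, a range in which WT replicate 2 stood alone. With 2 embryos against 2, an exact permutation test of a single ratio cannot give a two-sided p below 0.333, so none was tested.

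**Figure D4:**
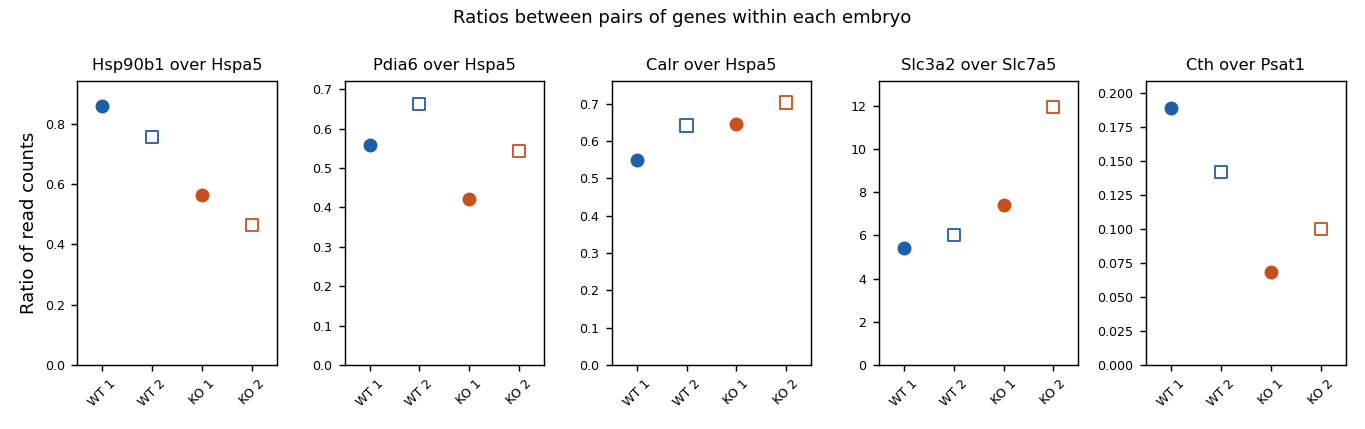
Ratio of the read counts of a pair of genes in each embryo (linear axes from 0), with 2 WT and 2 KO embryos. Hsp90b1 over Hspa5 is 0.756 or more in WT and 0.563 or less in KO, and Slc3a2 over Slc7a5 is 6.02 or less in WT and 7.42 or more in KO.

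The wider pathway was read from 4 lists of 95 other genes, 94 of which were tested, and none passed by edgeR or DESeq2 (0% and 1.54% of all genes). Their median log2 fold change was -0.18, with 30 genes above 0 and 64 below, where 52.3% of all genes tested were below 0. Among 26 other ATF4 partners and targets, of which 25 were tested, 13 had values above 0 and 12 below. Pck2, the mitochondrial PEP carboxykinase, had 21.0 and 17.4 CPM in WT against 7.08 and 6.71 in KO (log2 fold change -1.48, SE 0.43, edgeR adjusted p = 0.457). Cebpb, a C/EBP partner of ATF4, had 21.5 and 20.7 CPM in WT against 36.1 and 55.6 in KO (1.12, SE 0.39, edgeR adjusted p = 0.524). Stc2, a secreted stanniocalcin, differed by -1.25 (SE 0.47). In Pck2, Cebpb and Stc2 the groups did not overlap, in opposite directions within the same list. They were part of 13 genes of the 25 without overlap, 7 higher and 6 lower in KO. That is 52% of the list, where 38.2% of all genes tested had no overlap, and the list was not tested against the others.

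Of the 20 cytosolic aminoacyl-tRNA synthetases, a family in which some but not all genes are ATF4 targets, 19 had values below 0. The log2 fold changes ran from -0.60 (Tars) to 0.11 with a median of -0.29. Tars had 304 and 295 CPM in WT against 190 and 205 in KO (SE 0.28, edgeR adjusted p = 0.671). Farsa, Vars and Iars differed by -0.58, -0.48 and -0.48. The list summed to 4202 and 5130 CPM in WT and to 3759 and 3884 in KO.

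Among 12 genes of eIF2, its kinases, exchange factor and phosphatase, Nck1, an adaptor reported to act on eIF2 phosphorylation, had 46.3 and 52.1 CPM in WT against 91.1 and 79.5 in KO (log2 fold change 0.79, SE 0.33, edgeR adjusted p = 0.616). The exchange factor subunits Eif2b1 and Eif2b3 differed by 0.55 and -0.40, and the phosphatase catalytic subunit Ppp1cc by -0.45. Among 37 other XBP1 and ATF6 targets, 26 had values below 0 (median -0.18). Spcs3, a signal peptidase subunit, differed by -0.77 (SE 0.36, edgeR adjusted p = 0.671), Creld2 by -0.66 and Selenos by -0.56. Mbtps2, the protease that completes cleavage of ATF6, differed by 1.08 (SE 0.53), with 31.2 and 17.7 CPM in WT against 75.2 and 28.1 in KO and overlapping groups.

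Because m6A is placed mostly at a short consensus, its commonest form, GGACT in DNA letters, was counted in the longest coding transcript of each member. The members held a median of 1.10 sites per kb, and the 13224 tested genes with a coding transcript held 1.05 (quartiles 0.637 and 1.53). Per kb, Calr had the most (2.29, from 5 sites) and Hsp90b1 the fewest (0.354, from 1 site). Cth and Chac1, the genes with the smallest p and the highest value, had 2 sites each. A match to these letters does not show that a site is methylated.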

How the data were processed

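Polyadenylated RNA of each embryo was amplified by Smart-Seq v4 and read as pairs, per the labels' protocols. The authors deposited whole-number read counts per gene, 1 column per embryo and without normalisation. TopHat, Cufflinks and mm10 are named per the submitters' processing notes, with no version or role. No source used here names the counting program, its strand setting or the annotation. Of 47885 rows, 46574 matched GENCODE M21, 816 held gene models lacking an Ensembl identifier and 495 were not found.

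The KO and WT embryos were compared in R (4.3.3) with the quasi-likelihood F test of edgeR (4.0.16), after TMM scaling and with robust dispersions. The filterByExpr rule was set to a minimum count of 10 and a minimum total of 15, and kept 15563 genes, the 31 members among them. Benjamini-Hochberg adjustment ran over all of these. SE is the absolute log2 fold change over the square root of F, and 95% intervals use the t quantile of that fit. Alternatives were DESeq2 (1.42.0), limma-voom (3.58.1), RLE scaling, library totals, no filter, at least 50 counts in 2 libraries, the replicate block and leaving out each embryo. Exon lengths and overlaps came from GENCODE M21, and copies from blastn (at least 90% identity over 300 bases).

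The 31 members and the other lists were chosen with earlier results of these data known. All members are named. Per-embryo values with SE and adjusted p are given for the 12 with the smallest p and for Atf4, Ddit3, Xbp1, Hspa5, Asns and Slc7a11, and 4 genes with the smallest p are named per wider list. No label says whether the embryos of a group came from separate litters, and p-values cover only the variation among these 4 embryos. Amplified reads are not independent molecules.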

Additional observations from a re-analysis of the deposited data

How the results depend on the processing

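No member and no wider pathway gene passed under any of the 11 alternatives, and the smallest adjusted p of a member was 0.0924, for Cth with the replicate block (log2 fold change -1.25). Over all genes, edgeR called 0 higher and 0 lower, with 1217 at an unadjusted p under 0.05, and limma-voom called 0. DESeq2 gave 150 higher and 90 lower, and no low-count filter 157 and 101. The replicate block gave 52 and 19. The labels do not say that a number marks a shared litter, so what embryos of the same number share is not known. The WT and KO replicate differences had a correlation of 0.329 across genes. Genes with a count numbered 21488 in WT replicate 1 and 21250 in KO replicate 1, against 19603 in WT replicate 2 and 18346 in KO replicate 2. The source of these replicate differences was not tested. Leaving out 1 embryo gave 14 to 133 higher and 1 to 209 lower. The members' median ran from -0.07 to 0.01 with 1 embryo left out, that of the chaperones from -0.21 to -0.057, of amino acid supply from -0.73 to 0.17, of feedback and output from 0.35 to 0.55, of the transcription factors from 0.04 to 0.46 and of the sensors from -0.57 to 0.35. Under the 7 other alternatives no member changed sign. On leaving out 1 embryo 15 of 31 did: Asns (-1.03 to 0.18), Atf5 (-0.55 to 0.081), Atf6 (-0.57 to 0.30), Calr (-0.00049 to 0.24), Canx (-0.51 to 0.0084), Dnajb9 (-0.64 to 0.17), Eif2ak3 (-1.37 to 0.35), Hyou1 (-0.081 to 0.23), Pdia4 (-0.20 to 0.023), Phgdh (-0.64 to 0.58), Psat1 (-0.82 to 0.32), Psph (-0.31 to 0.16), Slc7a5 (-0.38 to 0.073), Vldlr (-0.74 to 0.40) and Xbp1 (-0.30 to 1.09). The cause was not tested. Atf5, Ddit4 and Slc7a11 were not in the fit that required at least 50 counts in 2 libraries. Depth limits Slc7a11, Atf5, Ddit4, Ddit3 and Ern1, each under 100 counts in every embryo.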
